A study of Mus musculus with 4 samples.

Results

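The transcripts of 10 genes were followed in mouse embryonic stem cells: the DNA topoisomerases Top1, Top2a, Top2b, Top3a and Top3b, and the 5 subunits of condensin I, Smc2, Smc4, Ncaph, Ncapg and Ncapd2. They were taken by symbol, with no use of their values, from tables of 24428 genes, and all 10 were found and passed the filter on low counts. RNA-seq was made from untreated 129SvEv cells grown in serum with LIF, in 2 groups of 2 libraries. Cells of both groups carried a wild-type GFP fusion of Smarca4, the ATPase of the BAF chromatin remodelling complex, from one allele. From the other they expressed a V5-tagged Smarca4, without a change (WT) or with G784E, which makes the mutation heterozygous (G784E). Whether each genotype came from a single clone, and whether replicates were separate cultures, is not given in the sources used here, so p-values measure only how far these libraries differ, possibly for technical reasons.

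Topoisomerases cut DNA, pass strands and reseal the break. Type I enzymes (Top1, Top3a, Top3b) cut a single strand, and type II enzymes (Top2a, Top2b) pass a whole duplex through a double-strand break, which lets them separate intertwined sister chromatids. Top2a is the isoform of dividing cells, while Top2b is also made in cells that no longer divide and acts at transcribed genes. Condensin I is a ring of the ATPase pair Smc2 and Smc4, closed by the kleisin Ncaph, with the HEAT-repeat subunits Ncapg and Ncapd2, and it compacts mitotic chromosomes together with Top2a. BAF is known to help Top2a bind and act on DNA, so the comparison asks whether G784E cells also differ in the transcripts of these enzymes.

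In a model of the group alone, none of the 10 transcripts passed the test between G784E and WT, and their 95% intervals together ran from 0.511-fold (Top2b) to 1.58-fold (Top3a) of the WT level. Top2b, among the lowest of the 10 per length, had the largest difference, 1.40-fold lower in G784E, and rested on a single library for most of its size. Top2a, at 1444 to 1764 CPM the most abundant of the 10, had a fold change of 0.99. Ratios within a library did not overlap between the groups in 55.6% of the 45 pairs of these genes. Over all pairs of tested genes counted in every library that share was 37.4%. The condensin ATPase pair, picked after the values had been seen, was among those without overlap. Smc2 counts were 0.935 and 0.939 of Smc4 counts in the G784E libraries and 0.642 and 0.697 in the WT libraries.

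The upstream sequences of Top2a, Top2b and Ncapd2 are shown because these promoters differ in the elements known to drive genes in G2 and mitosis. Capitals mark the CCAAT box, bound by NF-Y (searched as CCAAT and, on the other strand, ATTGG), and the cell cycle genes homology region, CHR (TTTGAA and, on the other strand, TTCAAA), the site of the DREAM and MuvB complexes. Each is the 250 bases before the gene's start, 5′ to 3′ on the gene's strand, from RefSeq on build GRCm38.p6, which is not the mm9 build of the counts.
Top2a (chr11:99024190-99024439, minus strand): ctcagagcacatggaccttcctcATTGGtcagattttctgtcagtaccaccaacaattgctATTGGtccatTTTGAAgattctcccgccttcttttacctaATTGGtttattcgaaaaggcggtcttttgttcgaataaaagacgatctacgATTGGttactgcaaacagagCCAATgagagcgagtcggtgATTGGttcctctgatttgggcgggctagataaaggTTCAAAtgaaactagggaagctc
Top2b (chr14:16364956-16365205, plus strand): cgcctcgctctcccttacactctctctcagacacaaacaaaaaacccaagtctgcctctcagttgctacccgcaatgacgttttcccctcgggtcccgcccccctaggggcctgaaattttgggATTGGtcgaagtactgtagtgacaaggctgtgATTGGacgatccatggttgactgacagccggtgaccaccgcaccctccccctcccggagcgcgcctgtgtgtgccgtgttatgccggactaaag
Ncapd2 (chr6:125191587-125191836, minus strand): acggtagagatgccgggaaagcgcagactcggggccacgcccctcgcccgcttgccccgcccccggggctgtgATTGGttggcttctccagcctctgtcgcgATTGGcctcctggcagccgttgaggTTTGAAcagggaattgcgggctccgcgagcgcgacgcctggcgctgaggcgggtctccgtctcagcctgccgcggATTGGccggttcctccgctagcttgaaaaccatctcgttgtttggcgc
The Top2a promoter held 6 CCAAT matches and 2 CHR matches. At least 6 CCAAT matches were found in 0.0629% of 27025 promoters of the same length, and at least 2 CHR matches in 1.88%. Top2b held 2 CCAAT matches, as many or more than which were found in 10.5% of promoters, and no CHR match. Ncapd2 held 3 CCAAT matches (at least 3 in 2.98% of promoters) and 1 CHR match (at least 1 in 16.3%). Of the other 5 genes with a RefSeq promoter entry, Ncapg and Smc2 each held 1 match of both kinds, Top3b held 1 CCAAT match, and Top1 and Ncaph held neither. At least 1 match of both kinds was found in 5.73% of promoters. A match is a string of letters, and binding was not measured here.

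CPM values below are counts scaled to library size by TMM. Smarca4 itself had 3868 and 3580 CPM in G784E, above the 2423 and 2553 CPM of WT, in a count that does not separate the alleles (log2 fold change 0.58, SE 0.19; edgeR's quasi-likelihood test, adjusted p = 0.119). Libraries held 6226145 to 10083442 gene counts, so 1 count stood for 0.102 to 0.164 CPM. All 9 embryonic stem cell markers were present, with a summed level of 3195 and 3207 CPM in G784E and 2590 and 2918 CPM in WT. In 6 of them both G784E libraries were above both WT libraries, an arrangement of 19.4% of tested genes. The 9 feeder fibroblast markers summed to 55.5 to 86.7 CPM. The 13 extraembryonic endoderm markers summed to 4640 and 5011 CPM in WT but 505 and 518 CPM in G784E. All 13 had both G784E libraries below both WT libraries, an arrangement of 19.4% of tested genes. edgeR called 12 of the 13 lower, beside 1.89% of tested genes. In bulk RNA, fewer cells of a type and less RNA per cell cannot be told apart, and the part of these endoderm transcripts in the results below was not tested. Olfactory receptor genes, a background in stem cells, summed unscaled to 685 (G784E) and 684 CPM (WT) in the libraries numbered 1. In those numbered 2 they summed to 282 and 193 CPM.

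**Figure D1:**
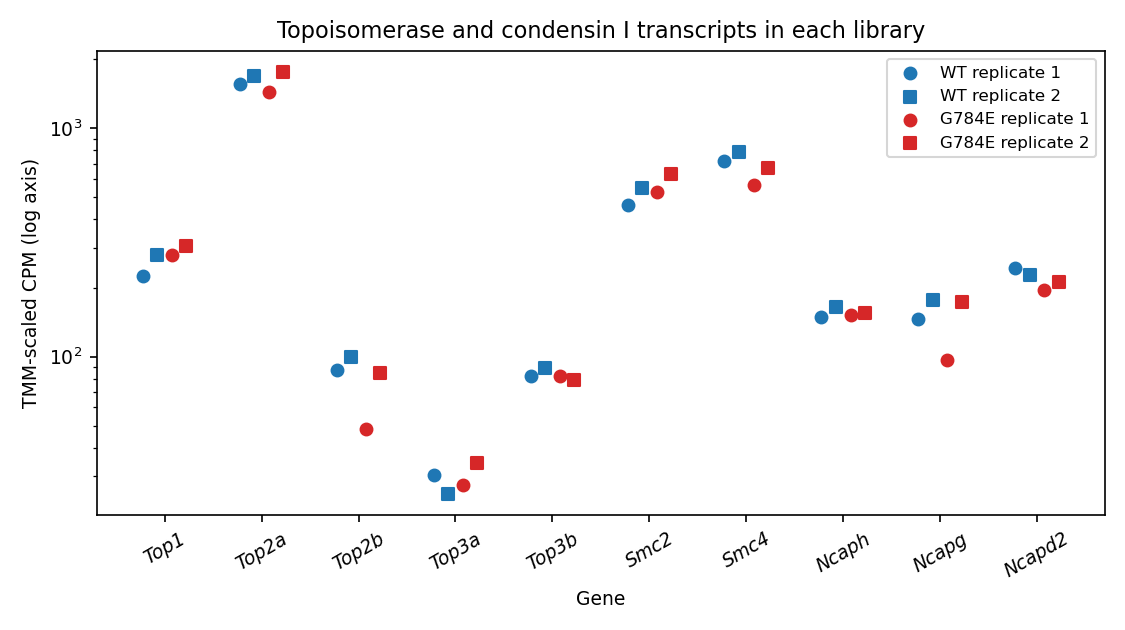
Level of each of the 10 transcripts in each library, as TMM-scaled CPM on a log axis; blue points are WT and red points G784E, circles replicate 1 and squares replicate 2. Top2a lies at 1444 to 1764 CPM in all 4 libraries, and the points of replicate 1 of G784E stand apart for Top2b (48.4 CPM) and Ncapg (97.0 CPM).

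Top2a, the decatenating enzyme of mitosis, stood at 1444 and 1764 CPM in G784E and at 1559 and 1684 CPM in WT. The WT libraries lay between the G784E libraries, so the groups overlapped. The log2 fold change was -0.02 (SE 0.19), with a 95% interval of -0.42 to 0.39 (edgeR, adjusted p = 1). In counts this rests on 8827 and 14977 reads in G784E and 11802 and 16585 in WT, so that counting error was small beside the difference between replicates. The estimate lay on both sides of 0 over 14 other analyses, from -0.24 to 0.12, and passed the threshold in none.

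Top2b, the isoform not tied to the cell cycle, stood at 48.4 and 84.8 CPM in G784E and at 87.3 and 100.2 CPM in WT. Both G784E libraries were below both WT libraries, replicate 2 of G784E only slightly. The log2 fold change was -0.49 (SE 0.23; 95% interval -0.97 to -0.0049), and it did not pass after adjustment over all genes (unadjusted p = 0.0479; edgeR, adjusted p = 0.423). Top2b was the single member of the 10 with an unadjusted p under 0.05, a level that 11.6% of tested genes reached. Within the libraries numbered 1 the log2 ratio of G784E to WT was -0.85, and within those numbered 2 it was -0.24.

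Replicate 1 of G784E decided the size of the Top2b difference. Without it the log2 fold change was -0.15 (edgeR, adjusted p = 0.912). Without replicate 2 of G784E, which leaves that library as its whole group, it was -1.03 and passed (edgeR, adjusted p = 0.00519). Without WT replicate 1 or WT replicate 2 it was -0.59 and -0.35 (edgeR, adjusted p = 0.791 and 0.952). The same library held the least Ncapg, and replicate 2 of G784E exceeded it 1.75-fold for Top2b and 1.78-fold for Ncapg, against 1.15-fold and 1.21-fold between the WT libraries.

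Other properties also differed between the libraries, and their part in this spread was not tested. The ribosomal RNA gene Rn45s took 16% of gene counts in replicate 1 of G784E and 10% to 11.9% in the other 3 libraries, and with Rn45s left out the Top2b difference was -0.52 (edgeR, adjusted p = 0.417). The transcripts of Top2b and Ncapg had GC contents of 42.2% and 34.8%, below the median of 49.6% over tested genes. Across 15651 genes, which are not independent replicates, GC content had a Spearman rho of -0.208 with the log2 ratio of replicate 2 to replicate 1 in G784E, and of -0.144 in WT. With a correction for GC content the Top2b difference was -0.42 (edgeR, adjusted p = 0.558). Of the 10 transcripts, 9 were lower in replicate 1 than in replicate 2 of G784E and 8 in WT, while 48.6% and 50.9% of all tested genes were. In the GENCODE M21 annotation of GRCm38, exons of Top2b overlap the gene Rarb on the opposite strand. Rarb had 0.471 to 2.13 CPM, and without a stated strand setting reads over the shared exons cannot be told apart.

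**Figure D2:**
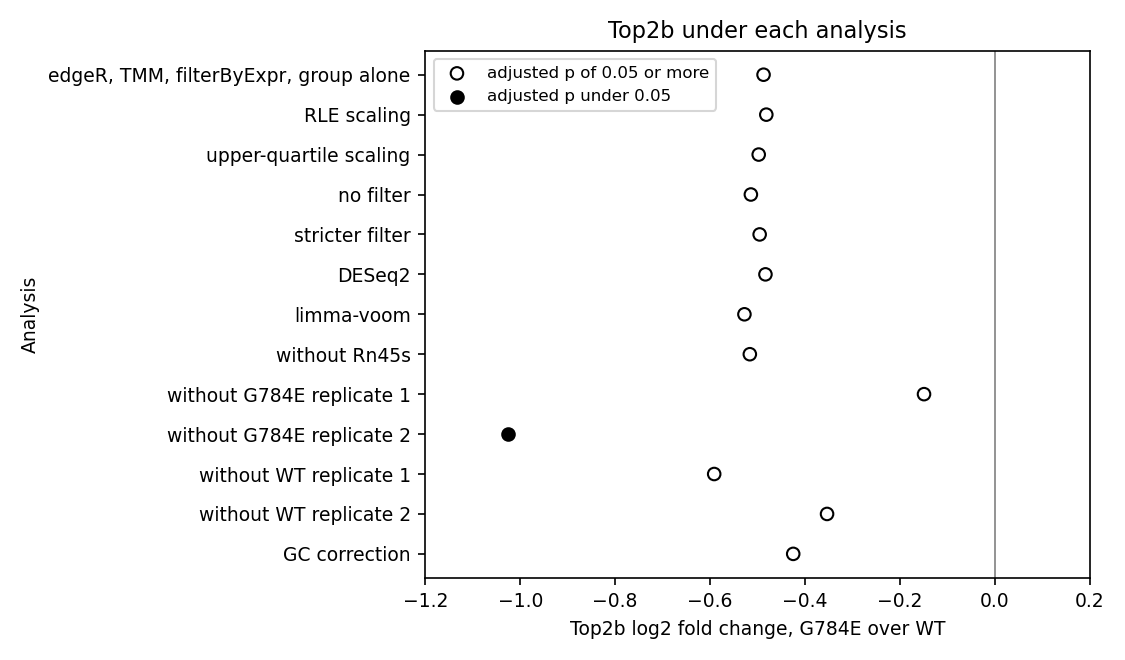
Log2 fold change of Top2b, G784E over WT, under the main edgeR analysis (top) and 12 alternatives that model the group alone; a filled point has an adjusted p under 0.05. Leaving out replicate 2 of G784E gives -1.03 and leaving out replicate 1 of G784E gives -0.15, and the other points lie between them.

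The ratio of Top2a to Top2b within a library does not depend on library scaling. It was 29.8 and 20.8 in G784E and 17.9 and 16.8 in WT, so the groups did not overlap, with replicate 1 of G784E far from the other 3 libraries. Top2b made up 3.24% of the Top2 reads in replicate 1 of G784E (95% Wilson interval 2.90 to 3.63%) and 4.59% (4.27 to 4.93%) in replicate 2. In WT it made up 5.30% (4.92 to 5.71%) and 5.62% (5.29 to 5.97%). The intervals hold counting error alone, and reads copied by PCR are not separate molecules. The mean log2 ratio was 0.52 higher in G784E, 4.64 ± 0.37 (SD, n = 2) against 4.11 ± 0.06 (SD, n = 2). An exact two-sided permutation test gave p = 0.333, the smallest that 2 against 2 libraries can give. Per kilobase of exon in transcripts with a RefSeq entry, Top2a exceeded Top2b 59.0-fold and 41.2-fold in G784E and 35.3-fold and 33.3-fold in WT. With the union of all annotated exons as length, it did so 48.35-fold and 33.7-fold in G784E and 28.95-fold and 27.2-fold in WT, so the excess depends on the length used.

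Among the type I enzymes, Top1, which relaxes supercoils ahead of polymerases, stood at 279 and 304 CPM in G784E and 226 and 279 CPM in WT. Replicate 2 of WT and replicate 1 of G784E were nearly equal, and the groups overlapped. The log2 fold change was 0.21 (SE 0.20; 95% interval -0.21 to 0.62; edgeR, adjusted p = 0.853). Top3a, which dissolves double Holliday junctions with the Blm helicase, stood at 27.5 and 34.4 CPM in G784E and at 30.4 and 25.2 CPM in WT. The order of its replicates was opposite in the groups, and the log2 fold change was 0.16 (SE 0.24; -0.33 to 0.66; edgeR, adjusted p = 0.956). Top3b, which acts on DNA and RNA with the scaffold protein Tdrd3, stood at 82.1 and 79.4 CPM in G784E and 82.3 and 89.7 CPM in WT. Its G784E libraries lay below the WT libraries with almost no gap at the nearest pair, and the log2 fold change was -0.09 (SE 0.20; -0.51 to 0.32; edgeR, adjusted p = 0.99).

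**Figure D3:**
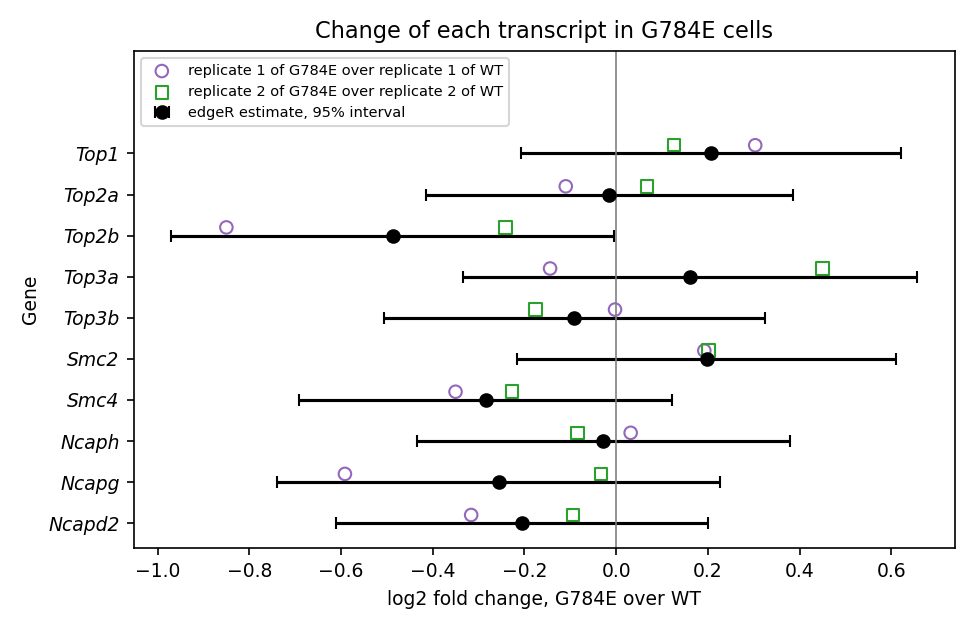
Log2 fold change of each transcript, G784E over WT: black points with bars are the edgeR estimate and its 95% interval, open circles and squares the ratio between libraries numbered 1 and between those numbered 2. All bars but that of Top2b, which ends at -0.0049, span 0, and the open symbols of Top2b (-0.85 and -0.24) and Ncapg (-0.59 and -0.03) lie far apart.

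In condensin I, the ATPase subunits Smc2 and Smc4 had estimates of opposite sign. Smc2 stood at 527 and 628 CPM in G784E and 461 and 546 CPM in WT, with overlapping groups (log2 fold change 0.20, SE 0.20; 95% interval -0.22 to 0.61; edgeR, adjusted p = 0.87). Smc4 stood at 564 and 669 CPM in G784E and 719 and 783.5 CPM in WT, and both G784E libraries were the lower ones (-0.28, SE 0.20; -0.69 to 0.12; edgeR, adjusted p = 0.704). Neither passed the test, in the main analysis or in any of 14 others. Without replicate 2 of G784E the Smc2 estimate was -0.01.

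The kleisin Ncaph, which closes the ring, stood at 152 and 156 CPM in G784E and 149 and 165 CPM in WT. The groups overlapped, and the log2 fold change was -0.03 (SE 0.20; 95% interval -0.44 to 0.38; edgeR, adjusted p = 1). Ncapg stood at 97.0 and 173 CPM in G784E and 146 and 177 CPM in WT, so that replicate 1 of G784E alone was low (-0.26, SE 0.23; -0.74 to 0.23; edgeR, adjusted p = 0.831). The Ncapg estimate was 0.09 without that library and -0.81 without replicate 2 of G784E (edgeR, adjusted p = 0.953 and 0.059). Exons of Ncapg overlap the gene Lcorl on the opposite strand in the GRCm38 annotation, and Lcorl stood at 21.1 to 31.3 CPM. Ncapd2 stood at 196 and 212 CPM in G784E and 244 and 227 CPM in WT. Its groups did not overlap, and the log2 fold change was -0.20 (SE 0.20; -0.61 to 0.20; edgeR, adjusted p = 0.853).

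Over the 10 transcripts, edgeR called 0 lower and 0 higher in G784E, as did DESeq2 and limma-voom, where 1.89% of tested genes were called lower and 0.672% higher by edgeR (2.56% in all). The median log2 fold change was -0.06, beside 0.00 over all 15763 tested genes. Top2b, Top3b, Smc4 and Ncapd2 had both G784E libraries below both WT libraries, an arrangement found in 19.4% of tested genes, and no member had the opposite one, found in 19.4% as well. The summed level of the 10 was 3417 and 4106 CPM in G784E and 3703 and 4076 CPM in WT.

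Ratios between the transcripts were examined for all 45 pairs, a description chosen after the values had been seen. In 25 pairs (55.6%) the ratios of the groups did not overlap. Over all pairs of tested genes with a count in every library that share was 37.4%, and pairs that have a gene in common are not independent. For Smc2 and Smc4 the gap between the groups was wider than the range within either group, 3.59 times the larger range. The same held for Top2a with Smc4 (5.85 times), Top2b with Ncapg (2.42), Top1 with Smc4 (1.97) and Top2a with Smc2 (1.02). How often this occurs over all gene pairs was not computed. Smc2 made up 48.3% (95% Wilson interval 47.1 to 49.5%) and 48.4% (47.5 to 49.4%) of Smc2 and Smc4 reads in G784E. In WT it made up 39.1% (38.1 to 40.1%) and 41.1% (40.2 to 41.9%). As for Top2b, these intervals hold counting error alone and not the spread between libraries. The mean log2 ratio of Smc2 to Smc4 was 0.49 higher in G784E, from 0.43 to 0.55 with any library left out. Top2a counts were 2.56 and 2.64 times those of Smc4 in G784E and 2.17 and 2.15 times in WT. An exact test over 2 against 2 libraries cannot give a two-sided p below 0.333 for any of these ratios.

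**Figure D4:**
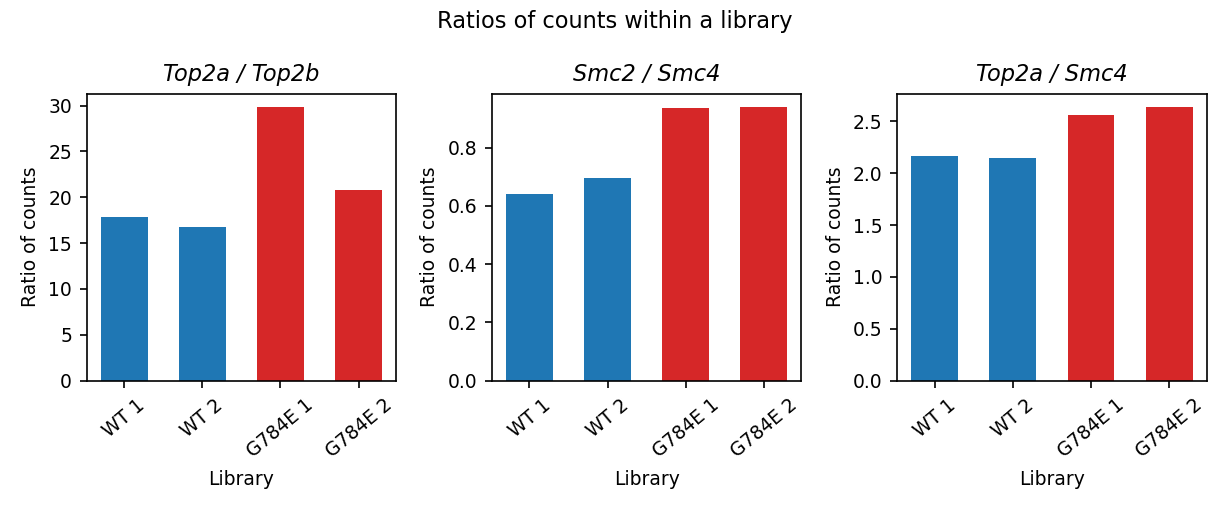
Ratio of counts in each library for Top2a over Top2b, Smc2 over Smc4 and Top2a over Smc4; blue bars are WT, red bars G784E, and axes start at 0. Both G784E bars exceed both WT bars in each panel, evenly for Smc2 over Smc4 (0.935 and 0.939 against 0.642 and 0.697) and unevenly for Top2a over Top2b (29.8 and 20.8 against 17.9 and 16.8).

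Levels of different genes were compared per kilobase of exon, with lengths from the transcripts of GENCODE M21 that carry a RefSeq entry. Top2a led with 310.5 ± 17.0 CPM per kb in WT and 307 ± 43.3 in G784E (SD, n = 2). Smc4 followed with 174 ± 10.7 in WT and 143 ± 17.3 in G784E, and Smc2 with 93.2 ± 11.1 and 107 ± 13.2. The libraries of these 3 genes did not overlap with those of the next in order. Top1 (65.4 ± 9.72 in WT) and Ncaph (58.3 ± 4.38) overlapped, as did Ncapd2 (50.9 ± 2.71) with Ncapg (43.6 ± 5.86) and Ncapg with Top3b (27.0 ± 1.64). Top2b (9.07 ± 0.884 in WT, 6.45 ± 2.49 in G784E) and Top3a (7.43 ± 0.982 and 8.27 ± 1.31) were the lowest and overlapped. Within condensin I the Smc2 and Smc4 transcripts therefore lay above those of Ncaph, Ncapd2 and Ncapg in each library on this scale. With the union of all annotated exons as length, Top1 moved from 4th to 6th place, and Top2a, Smc4 and Smc2 held the first 3 places as before.

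Condensin II, which shares Smc2 and Smc4 but has its own Ncaph2, Ncapg2 and Ncapd3 and works in the nucleus from interphase on, showed no called change. Ncaph2 stood at 16.7 and 19.0 CPM in G784E and 21.3 and 17.8 CPM in WT (log2 fold change -0.13, SE 0.27). Ncapg2 stood at 97.5 and 148 CPM in G784E and 103 and 137 CPM in WT (0.04, SE 0.22). Ncapd3 stood at 131 and 158 CPM in G784E and 111 and 132 CPM in WT (0.25, SE 0.20). The groups overlapped for all 3, and edgeR's adjusted p was 0.783 or more. Neither DESeq2 nor limma-voom called any of them, and 0 had an unadjusted p under 0.05.

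The remaining topoisomerase genes were low, at 8.32 CPM or less. The mitochondrial enzyme gene Top1mt stood at 2.45 and 7.19 CPM in G784E and 8.32 and 7.01 CPM in WT (log2 fold change -0.64, SE 0.51; edgeR, adjusted p = 0.777), again with replicate 1 of G784E alone low. The meiotic Spo11 had 0.471 to 1.8 CPM, and its partner Gm960 (Top6bl) had 0 to 0.660 CPM and was not tested. In these libraries 3 counts, taken as the floor, equalled 0.305 to 0.491 CPM.

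Partners that guide topoisomerases or repair their trapped DNA complexes had 0 of 13 tested members called in edgeR, 0 with an unadjusted p under 0.05, and 0 called in DESeq2 or limma-voom (median log2 fold change -0.04). They included Tdp1 (-0.09, SE 0.25) and Tdp2 (-0.04, SE 0.25), which remove topoisomerase I and II from DNA ends, the Top3a partner Blm (-0.29, SE 0.20) and the Top3b partner Tdrd3 (-0.04, SE 0.24). Of the 13 estimates 7 were below 0 and 6 above, the highest that of Topors (0.38, SE 0.20), named after its values were seen. Topbp1, the checkpoint scaffold with the highest CPM of the list, stood at 382 and 504 CPM in G784E and 396 and 515 CPM in WT. Of 4 genes for condensin regulators and the chromosome periphery, 0 were called by edgeR, DESeq2 or limma-voom and 0 had an unadjusted p under 0.05. Kif4, a motor that loads condensin I, stood at 133 and 167 CPM in G784E and 172 and 197 CPM in WT (-0.30, SE 0.20; edgeR, adjusted p = 0.697). Mki67, which coats mitotic chromosomes, stood at 1093 and 1221 CPM in G784E and 1328 and 1434 CPM in WT (-0.26, SE 0.19; edgeR, adjusted p = 0.745). In Kif4 and Mki67 both G784E libraries were below both WT libraries, an arrangement of 19.4% of tested genes. The other members of this list had overlapping groups and estimates above 0. Mcph1, an inhibitor of condensin II, had a log2 fold change of 0.12 (SE 0.21), and Akap8, an anchoring protein of chromatin, of 0.21 (SE 0.21).

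The other SMC complexes were also without a called gene in edgeR, DESeq2 and limma-voom. In cohesin, which holds sister chromatids together, 17 members were tested, with a median of 0.00, and 0 had an unadjusted p under 0.05. Smc3, the most abundant, stood at 834 and 1078 CPM in G784E and 867 and 1028 CPM in WT (log2 fold change 0.01, SE 0.20). In the SMC5/6 complex, which acts in DNA repair, the median of 6 was 0.08. Its ATPase genes Smc5 and Smc6 had log2 fold changes of -0.11 (SE 0.22) and -0.13 (SE 0.21). The SUMO ligase gene Nsmce2, at 66.8 and 77.9 CPM in G784E and 85.2 and 112 CPM in WT, was the 1 member with an unadjusted p under 0.05 (-0.45, SE 0.21; unadjusted p = 0.0445; edgeR, adjusted p = 0.41). Nsmce1, Nsmce4a and Ndnl2 (Nsmce3) had values of 0.29 (SE 0.50), 0.27 (SE 0.30) and 0.67 (SE 0.62).

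**Figure D5:**
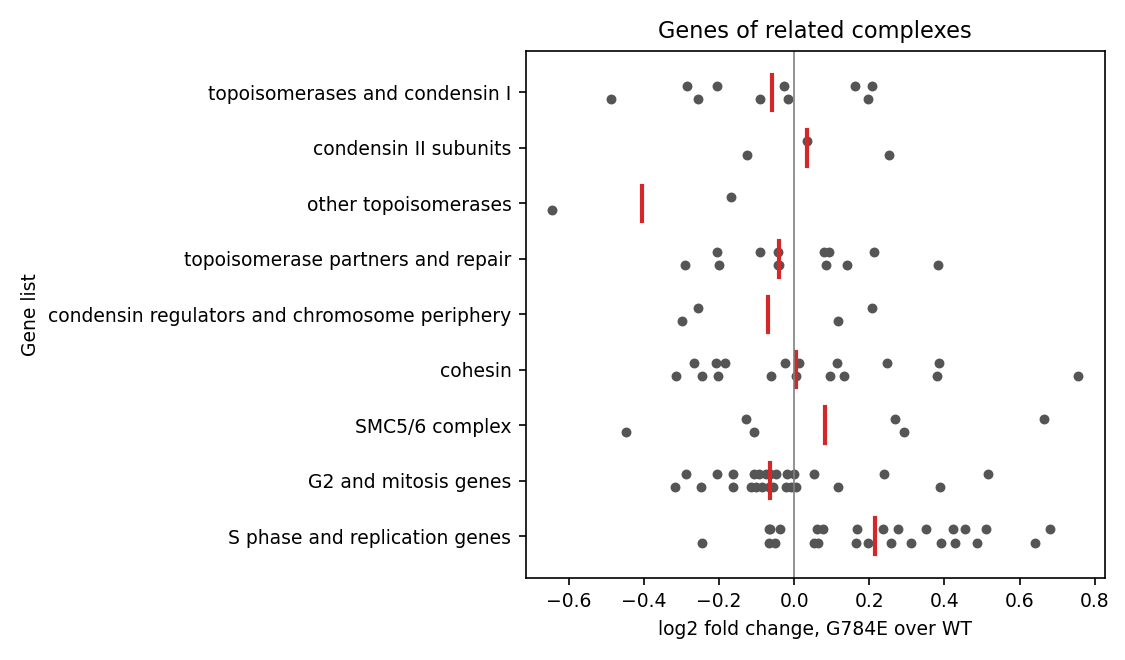
Log2 fold change, G784E over WT, of each tested gene (grey points) in the 10 genes followed here and in lists of related genes, with the median of each list as a red line; the vertical jitter of points carries no value. Medians lie at -0.06 for the 10 genes, -0.07 for G2 and mitosis genes and 0.22 for S phase and replication genes, and no point passed edgeR's test.

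Top2a and condensin I are made in dividing cells, and proliferation genes gave the setting for their levels. Of 26 genes of G2 and mitosis, 0 were called by edgeR, DESeq2 or limma-voom, and the median log2 fold change was -0.07, close to that of the 10 genes. Both medians moved with the library left out. Without replicate 2 of G784E the median was -0.19 for the 10 genes and -0.27 for the G2 and mitosis genes. Without replicate 1 of G784E it was 0.04 and 0.02. Cenpf, the kinetochore gene with the highest CPM of the G2 and mitosis list, stood at 698 and 809 CPM in G784E and 684 and 893 CPM in WT (-0.07, SE 0.20). Kif20a, a kinesin of cytokinesis named here after its values were seen, was the 1 gene with an unadjusted p under 0.05 (0.52, SE 0.20; unadjusted p = 0.0151; edgeR, adjusted p = 0.236). In 3 of the 26 both G784E libraries were below WT, and in 3 above, beside 19.4% of tested genes in either direction.

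The 26 genes of S phase and DNA replication had a median log2 fold change of 0.22. It was 0.03 without replicate 2 of G784E and 0.31 without replicate 1 of G784E. edgeR and DESeq2 called 0 of them and limma-voom 1, Cdt1, and 7 had an unadjusted p under 0.05, beside 11.6% of all tested genes. In 13 both G784E libraries were above both WT libraries, beside 19.4% of tested genes, and in 0 were both below. The 9 embryonic stem cell markers had a median log2 fold change of 0.23, with all 9 estimates above 0 and 0 called by edgeR (1 at an unadjusted p under 0.05), and their part in the S phase values was not tested. Lig1, the replicative ligase with the highest mean CPM of the list, stood at 444 and 418 CPM in G784E and 381 and 387 CPM in WT (0.17, SE 0.19; edgeR, adjusted p = 0.911). Cdt1 and Rpa2, a licensing factor and a subunit of the single-strand binding protein, were named after their values were seen. Cdt1 stood at 127 and 105 CPM in G784E and 70.9 and 77.5 CPM in WT (0.64, SE 0.20; edgeR, adjusted p = 0.119; limma-voom, adjusted p = 0.0491). Rpa2 stood at 37.0 and 41.7 CPM in G784E and 24.6 and 24.6 CPM in WT (0.68, SE 0.23; edgeR, adjusted p = 0.153).

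The BAF subunits tied to Top2a in earlier work, Smarca4 and Arid1a, were set beside the topoisomerases. Smarca4 was 1.5-fold higher in G784E without passing edgeR's test with TMM scaling (adjusted p = 0.119). It passed when edgeR scaled by upper quartile (adjusted p = 0.0108), in DESeq2 (adjusted p = 0.00873) and in limma-voom (adjusted p = 0.03). It did not pass in edgeR with RLE scaling (adjusted p = 0.1745), no filter (0.764) or a stricter filter (0.0806). Nor did it pass in edgeR without Rn45s (adjusted p = 0.128) or with GC correction (0.216). With a library left out, the Smarca4 log2 fold change was 0.52 to 0.65. Arid1a, which encodes the BAF250a subunit, stood at 833 and 792 CPM in G784E and 647 and 897 CPM in WT, with overlapping groups (log2 fold change 0.07, SE 0.20; edgeR, adjusted p = 0.996).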

How the data were processed

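RNA was captured on poly(dT) and converted to DNA for sequencing, per the labels' protocols. For each library the authors deposited a table of read counts by gene symbol, as unnormalized whole numbers. The submitters' processing notes name build mm9 and the tools Bowtie2 2.1.0, CASAVA 1.8.2, DESeq2 and HTSeq. Which annotation, counting mode and strand setting were used is not given in the sources used here. Summary rows (no feature, ambiguous, not unique) held 83.3% to 88.7% of reads per table and were left out. Reads shared by near-identical sequences are therefore missing from the counts.

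Counts were tested with edgeR 4.0.16 (R 4.3.3, quasi-likelihood, TMM scaling, group alone, 2 residual degrees of freedom). Filtering by filterByExpr (minimum count 10, minimum total 15) kept 15763 of 24428 genes. P-values were adjusted over all of these by Benjamini-Hochberg, with a threshold of 0.05. The SE was the log2 fold change over the square root of F, and 95% intervals used the model's degrees of freedom, unadjusted for multiple genes. The analysis was repeated with upper-quartile and RLE scaling, with all genes, with genes of 50 counts or more that reached 1 CPM in 2 libraries, without Rn45s, with a replicate block and with each library omitted in turn. DESeq2 1.42.0 and limma-voom (limma 3.58.1) were also run. GC correction by lowess on transcript GC content (span 0.3; 99.3% of tested genes matched) was added after seeing the data. Where a group kept 1 library, that library was taken to vary as the other group does.

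The genes and lists were chosen with earlier results of these data known. Named genes were Smarca4, the 10 genes, all members of lists of at most 6 genes, and, of larger lists, called members and the one with the highest CPM; others are said to be named after their values were seen, or are the partners of a gene followed here. Chi-square per degree of freedom was 17.2 between the G784E and 9.78 between the WT libraries, so within each group neither library was a copy of the other. Promoters matched 8 of the 10 symbols in RefSeq. The procedures were tested on simulated counts.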

Additional observations from a re-analysis of the deposited data

How the results depend on the processing

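Over the 10 genes, 0 passed in edgeR with RLE or upper-quartile scaling, no filter, the stricter filter, GC correction or counts without Rn45s, in DESeq2 and in limma-voom. With each library left out, 0 to 1 were lower (Top2b). Genes lower in G784E, 298 in the main analysis, then ran from 150 to 579, and those higher, 106, from 26 to 161; limma-voom gave 186 higher.

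The labels do not say that a replicate number marks a shared batch, and 2 pairs are too few to decide. Deviations from the group means correlated at 0.458 between libraries of the same number. With the replicate block, 658 genes were lower and 546 higher, and 1 of the 10 was lower, Top2b (-0.53, adjusted p = 0.0356 in edgeR). With the block and GC correction together, 705 were lower and 816 higher, and Top2b was again the 1 called (-0.46, adjusted p = 0.0361 in edgeR). Calls in the lists with the block, and with the block and GC correction, were 6 and 8 (S phase), 1 and 2 (G2 and mitosis), 1 and 1 (partners), 1 and 1 (cohesin), and Smarca4 passed in both (adjusted p = 1.59e-05 and 1.4e-07 in edgeR).

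Some estimates changed sign, none of them called, while Top2b kept its sign in all analyses. With a library left out, ranges were -0.24 to 0.12 (Top2a), -0.085 to 0.31 (Top3a), -0.16 to 0.0015 (Top3b), -0.007 to 0.35 (Smc2), -0.12 to 0.080 (Ncaph), -0.81 to 0.094 (Ncapg) and -1.03 to -0.15 (Top2b). They were -0.37 to 0.30 (Ncapg2), -1.39 to 0.44 (Spo11), -0.33 to 0.19 (Topbp1), -0.21 to 0.33 (Mcph1), -0.0045 to 0.44 (Akap8), -0.26 to 0.18 (Smc3), -0.48 to 0.13 (Smc5), -0.49 to 0.11 (Smc6), -0.054 to 0.77 (Nsmce1), -0.25 to 0.17 (Cenpf) and -0.15 to 0.36 (Arid1a). With GC correction alone and with the block, Top2a was at 0.057 and 0.054, Ncaph at 0.027 and 0.030, Topbp1 at 0.021 and 0.022 and Cenpf at 0.0089 and 0.018. Smc3 was at -0.020 with no filter and -0.018 without Rn45s. The log2 ratio of Top2a to Top2b, 0.52, was 0.26 to 0.78 with a library left out. The cause of these moves was not tested. Depth limits Spo11 and Gm960, at or near the floor of 3 counts.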
